A study of Mus musculus with 8 samples.

Results

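A set of 10 genes that mark the fibroblasts of the brain's coverings or encode collagens was followed one library at a time: Col1a1, Col1a2, Col3a1, Col6a4, Dcn, Lum, Ogn, Igf2, Slc6a13 and Aldh1a2. They are among the 46078 gene entries of the deposited count table and were taken by gene name. All 10 were among the 15859 genes with enough counts to be tested. The names were chosen with the counts and fold changes of these same 8 libraries known, so their values are a description and carry no test. WT replicate 2 held the highest level of 8 of the 10 genes, beside 9.83% of all tested genes, and Col6a4 was the 1 gene of the 10 whose groups did not overlap, beside 2.31% of all tested genes (1.29% with Cre above WT).

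The study measured hippocampal RNA in 4 Cre libraries and 4 WT libraries. Cre mice carried the Tg(Camk2a-cre)2Gsc transgene (CamiCre, Cre+/-), in which Camk2a regulatory sequence directs Cre recombinase to excitatory neurons of the forebrain. WT mice lacked it, and both groups were C57BL/6J and 9 weeks old. No label says whether the libraries come from separate animals, so every SD and SE here covers the spread between libraries, which may be technical.

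The brain is wrapped in meninges, thin membranes whose fibroblasts lay down a matrix of fibrillar collagens and small proteoglycans. Those of the inner layers, the leptomeninges, also carry transporters between cerebrospinal fluid and tissue, and make retinoic acid and insulin-like growth factor. Fibroblasts of the same kind follow larger vessels into the brain, while neurons, astrocytes and oligodendrocytes make little type I collagen.

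Library totals ran from 21339996 to 27826871 counts. Levels are given as CPM, counts scaled to the effective library size, which is the total times edgeR's TMM factor, which ran from 0.988 to 1.01. At this depth 3 counts, the limit that a count of 0 allows, amount to between 0.107 and 0.142 CPM, and the 10 genes held between 22 and 1974 counts per library. Pyramidal and granule neuron markers fitted the tissue label, with Camk2a at 4539 to 4845 CPM in Cre libraries and 4480 to 4756 CPM in WT libraries. The label of meningeal fibroblasts was set beside 31 further markers, of which 30 were in the table and 27 were tested. These markers too were chosen with earlier results of these data known, so they are no independent check of the label. Their summed level ran from 506 to 620 CPM in Cre libraries and from 505 to 881 CPM in WT libraries. Of the 30, the organic cation transporter gene Slc22a2, Cdh1 and Asgr1 were untested, at most 0.53 CPM in Cre libraries and 1.48 CPM in WT libraries. A pair of WT libraries stood apart. WT replicate 2 was highest of the 8 libraries in 20 of the 27 tested meningeal markers, where it was highest in 9.83% of all tested genes. WT replicate 1 held 1630 CPM of choroid plexus epithelium markers summed, against 128 to 167 CPM in the other 7 libraries.

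The summed level of the 10 genes was 116, 96.0, 114 and 113 CPM in the Cre libraries, and 146, 202, 90.6 and 93.4 CPM in the WT libraries. Without Dcn and Igf2, the most abundant pair, the sum was 36.6, 34.1, 40.5 and 42.8 CPM in the Cre libraries and 36.5, 85.1, 24.6 and 25.7 CPM in the WT libraries. WT replicate 2 lay far above the range of the Cre libraries in both sums, and WT replicates 3 and 4 lay below it. WT replicate 1 lay above that range in the sum of 10 genes and within it without Dcn and Igf2. In RNA from whole tissue, fewer cells of a type and less RNA per cell cannot be told apart.

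**Figure D1:**
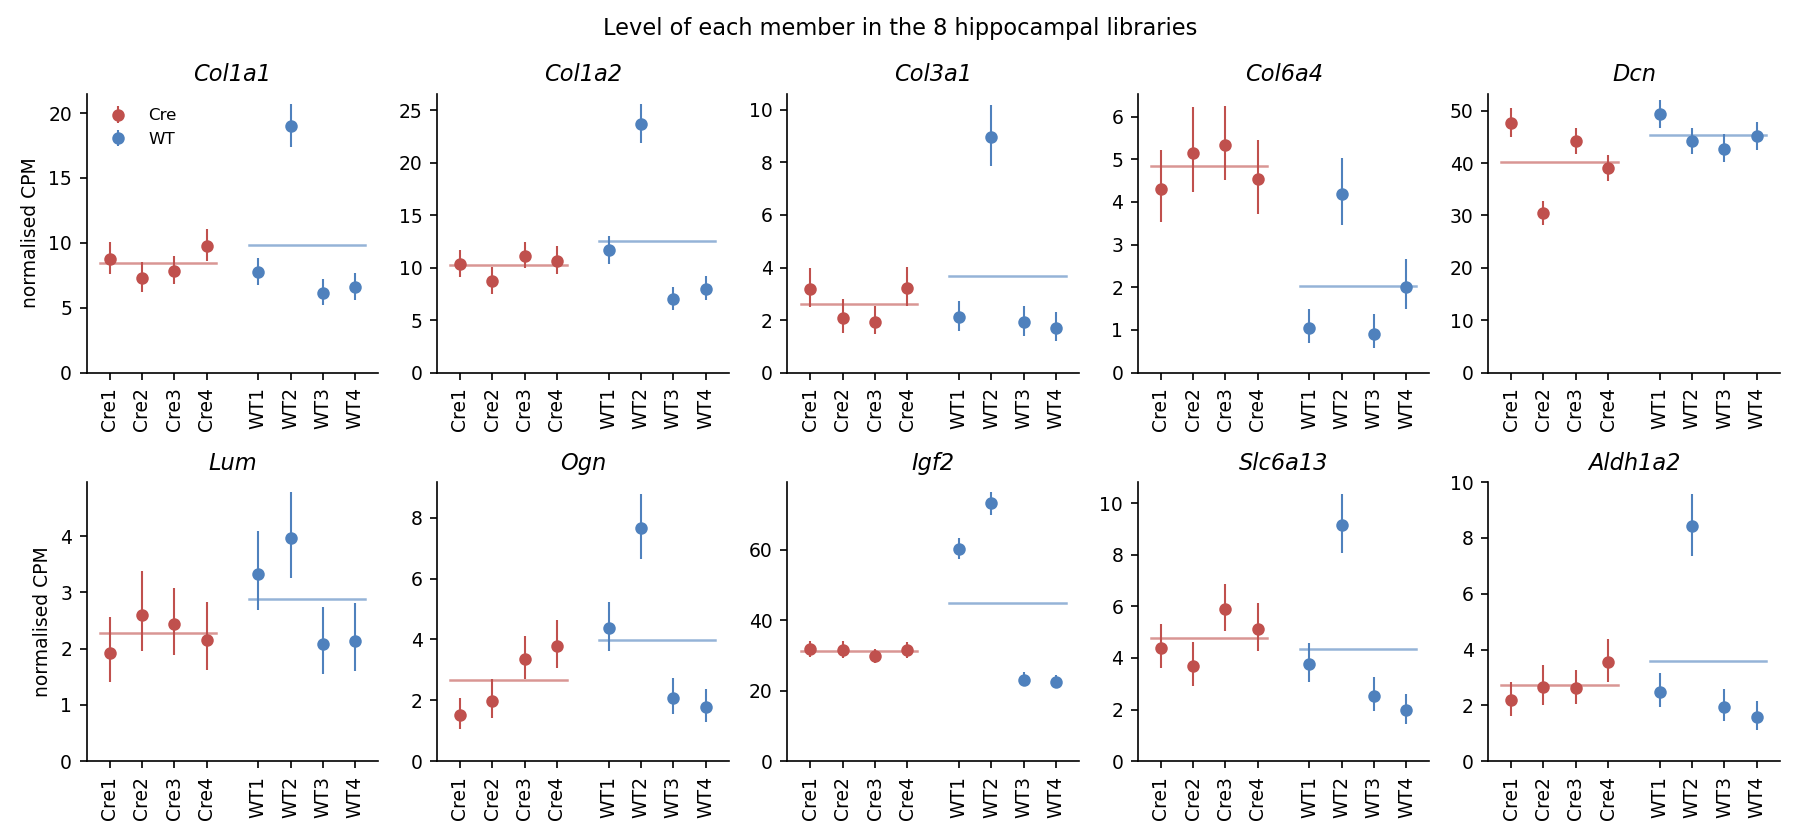
Level of each of the 10 genes in each library, in CPM on a linear axis that starts at 0. Points are libraries, bars are exact 95% Poisson intervals that cover counting error only, and horizontal lines are group means. WT replicate 2 is the highest library in 8 panels, whereas Dcn is highest in WT replicate 1 and Col6a4 in Cre replicate 3.

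Across the fit of all genes, 2 of the 10 genes had a log2 fold change (Cre over WT) above 0 and 8 had one below 0, with a median of -0.33 beside 0.00 for all tested genes. edgeR's quasi-likelihood test called 0 of the 10 at an adjusted p under 0.05, beside 0.0315% of all tested genes, and DESeq2 and limma voom also called 0 of them. At an unadjusted p under 0.05 the count was 1 of 10, beside 3.5% of all tested genes. Since the genes were chosen on this contrast, nothing is read from these counts.

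Col1a1 and Col1a2 encode the α1 and α2 chains of type I collagen, which join in a triple helix, and Col3a1 encodes the single chain of type III collagen. Col1a1 lies on chromosome 11 (94936224 to 94953042, plus strand, GRCm38), Col1a2 on chromosome 6 (4504814 to 4541544, plus strand) and Col3a1 on chromosome 1 (45311538 to 45349706, plus strand). In the coding sequence of a fibrillar collagen a glycine codon, written GGN, recurs at every 3 codons over almost the whole helix. The unbroken run counts 338 repeats in Col1a1, 339 in Col1a2 and 344 in Col3a1. Col6a4, a chain of the beaded filament collagen type VI, has a short helix, and its run counts 45 repeats. Only 51 of 21660 protein-coding genes of the annotation, or 0.235%, hold a run of 30 repeats or more, and 42 of these are collagens. The first 24 codons of each run are shown 5′ to 3′ from the GENCODE transcript sequences, with the GG of the glycine codon at every 3 codons in capitals, because the repeat is what sets these 4 genes apart from the other 6.
Col1a1, codons 168 to 191 of 1453: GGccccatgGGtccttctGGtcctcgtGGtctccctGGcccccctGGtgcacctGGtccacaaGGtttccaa
Col1a2, codons 97 to 120 of 1372: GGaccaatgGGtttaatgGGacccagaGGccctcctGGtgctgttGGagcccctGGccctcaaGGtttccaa
Col3a1, codons 164 to 187 of 1464: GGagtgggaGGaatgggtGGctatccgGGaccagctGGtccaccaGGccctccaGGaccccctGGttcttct
Col6a4, codons 1541 to 1564 of 2309: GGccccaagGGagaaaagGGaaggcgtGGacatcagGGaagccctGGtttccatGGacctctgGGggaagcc

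Type I collagen was even over the Cre libraries and high in a single WT library. Col1a1 had 8.79, 7.28, 7.87 and 9.78 CPM in Cre libraries, against 7.74, 19, 6.15 and 6.58 CPM in WT libraries. WT replicate 2 lay above the Cre libraries, at 2.46 times the median of the other 7 libraries. WT replicates 3 and 4 lay below the Cre libraries by a smaller gap, WT replicate 1 lay among them, and the groups overlapped. Col1a2 had 10.3, 8.70, 11.1 and 10.6 CPM in Cre libraries and 11.6, 23.7, 7.02 and 7.98 CPM in WT libraries. The highest library was again WT replicate 2, at 2.29 times the median of the others, and WT replicates 3 and 4 were lowest. The log2 fold changes were -0.23 (SE 0.30) for Col1a1 and -0.31 (SE 0.30) for Col1a2, each close to 1 SE from 0.

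Col3a1 was sparser and more uneven. It had 3.18, 2.08, 1.93 and 3.22 CPM in Cre libraries, against 2.11, 8.97, 1.91 and 1.69 CPM in WT libraries. The value of WT replicate 2 rested on 242 counts and was 4.31 times the median of the other 7 libraries, the highest such ratio of the 10 genes. The other 7 libraries held 41 to 79 counts and overlapped between groups. Its log2 fold change was -0.51 (SE 0.47).

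Col6a4 did not follow the fibrillar collagens. It encodes an α chain of type VI collagen that is functional in mice, while its human counterpart is a broken gene. The gene lies on chromosome 9 (105989454 to 106096783, minus strand, GRCm38). It had 4.31, 5.15, 5.33 and 4.52 CPM in Cre libraries, against 1.04, 4.19, 0.91 and 2.02 CPM in WT libraries. The 4 Cre libraries lay close together and the WT libraries were spread out, with WT replicate 2 just under the lowest Cre library. Counts were 103, 109, 149 and 111 in Cre libraries, and 28, 113, 22 and 49 in WT libraries. The means were 4.83 ± 0.49 CPM in Cre libraries and 2.04 ± 1.52 CPM in WT libraries (SD, n = 4 each), with a log2 fold change of 1.23 (SE 0.35). The counting intervals of the lowest Cre and the highest WT library overlapped, at 3.52 to 5.23 CPM in Cre replicate 1 and 3.45 to 5.04 CPM in WT replicate 2 (exact Poisson 95%). Of 3 genes annotated on the opposite strand within or across Col6a4, Gm24631 and Gm36993 held 0 counts in every library. For the antisense gene Gm47575 no counts were found by name, so its part in the reads of Col6a4 is not known.

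Other type VI collagen genes differed from Col6a4 in their values. Col6a1, the most abundant, had 48.8, 40.4, 34.9 and 15.4 CPM in Cre libraries and 25.6, 32.2, 40.1 and 35.1 CPM in WT libraries. The Cre libraries of Col6a1 held both the highest and the lowest value, and its log2 fold change was 0.07 (SE 0.25). Col6a2 had a log2 fold change of 0.15 (SE 0.15), Col6a3 of 0.23 (SE 0.20), Col6a5 of 0.43 (SE 0.49) and Col6a6 of -0.05 (SE 0.42). The 14 tested collagens of basement membranes and beaded filaments had 7 fold changes above 0 and 7 below 0, with a median of 0.02. Cre replicate 1 was highest in Col4a2, Col6a1 and Col6a2, and WT replicate 2 was highest in 2 of the 14 genes. edgeR called 0 of the 14, and 0 had an unadjusted p under 0.05.

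The other fibrillar and fibril-associated collagens, listed here together with Col8a1 and Col8a2 of type VIII, did not share the pattern of types I and III as a group. WT replicate 2 was highest in 5 of 16 tested genes, 8 fold changes were above 0 and 8 below 0, and the median was 0.00. Col11a2 and Col5a1, a regulator of fibril width, had log2 fold changes of 0.03 (SE 0.07) and 0.09 (SE 0.11). Col8a1, a network collagen, had 0.28 to 0.68 CPM in Cre libraries, against 7.78 CPM in WT replicate 1 and 0.62 to 1.33 CPM in the other WT libraries. Genes of collagen folding, processing and crosslinking summed to 850 to 899 CPM in Cre libraries and 846 to 875 CPM in WT libraries, and WT replicate 2 was highest in 1 of the 26 tested. Single genes of the list were less even than the sum. Pcolce, an enhancer of procollagen processing, had 3.05, 2.55, 2.25 and 1.59 CPM in Cre libraries and 8.29, 5.12, 1.66 and 2.26 CPM in WT libraries, with WT replicates 1 and 2 above all Cre libraries and a log2 fold change of -0.89 (SE 0.41). Adamts2, a procollagen protease gene, had a log2 fold change of -0.25 (SE 0.11), with 12.2 ± 1.84 CPM in Cre libraries and 14.6 ± 1.29 CPM in WT libraries (SD, n = 4 each). Sparc, a collagen-binding matrix protein and the most abundant of them, had 249 ± 19.4 CPM in Cre libraries and 239 ± 10.1 CPM in WT libraries (SD, n = 4 each). edgeR called 0 of the 16 and 0 of the 26, with 1 of each at an unadjusted p under 0.05, Col8a1 and Adamts2.

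Dcn, Lum and Ogn encode decorin, lumican and osteoglycin, small leucine-rich proteoglycans that bind collagen fibrils. Dcn and Lum are neighbours on chromosome 10 (97479609 to 97518143 and 97565128 to 97572703, both plus strand, GRCm38), and Ogn lies on chromosome 13 (49608046 to 49624501, plus strand). The 3 genes did not move as a set. Dcn had 47.7, 30.4, 44.1 and 39.0 CPM in Cre libraries, against 49.4, 44.2, 42.8 and 45.1 CPM in WT libraries. Here WT replicate 2 was ordinary, at 1.0 times the median of the other 7 libraries, and the lowest value was that of Cre replicate 2. Its neighbour Lum had 1.92, 2.6, 2.43 and 2.16 CPM in Cre libraries, against 3.33, 3.97, 2.08 and 2.14 CPM in WT libraries. WT replicates 1 and 2 stood above the other 6 libraries, while WT replicates 3 and 4 lay among the Cre libraries. The log2 fold changes were -0.17 (SE 0.10) for Dcn and -0.34 (SE 0.22) for Lum.

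Ogn varied within both groups. It had 1.51, 1.99, 3.36 and 3.79 CPM in Cre libraries, against 4.37, 7.67, 2.08 and 1.77 CPM in WT libraries. WT replicates 1 and 2 were highest and the groups overlapped, with a log2 fold change of -0.58 (SE 0.42). Ogn sits inside Cenpp, a centromere gene read from the opposite strand, and the strand setting of the authors' counting is not given in the sources used here. Cenpp itself held 25 to 29 counts in Cre libraries and 15 to 34 counts in WT libraries, without the spread of Ogn. Of 14 other proteoglycans of the family, 8 were tested, 3 with fold changes above 0 and 5 below 0. Prelp, the most abundant, had 30.9 ± 5.44 CPM in Cre libraries and 26 ± 3.29 CPM in WT libraries (SD, n = 4 each). Fmod, fibromodulin, resembled the fibrillar collagens, with 3.14, 3.74, 4.83 and 5.50 CPM in Cre libraries and 2.44, 13.9, 2.16 and 1.97 CPM in WT libraries. edgeR called 0 of the 8, with 1 at an unadjusted p under 0.05.

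Igf2 encodes insulin-like growth factor 2, which in the adult brain is made in the leptomeninges and the choroid plexus. It lies on chromosome 7 (142650766 to 142666816, minus strand, GRCm38). It had 31.8, 31.5, 29.8 and 31.6 CPM in Cre libraries, against 60.3, 73.2, 23.2 and 22.5 CPM in WT libraries. The Cre libraries were almost equal, and the WT libraries fell into a high pair, replicates 1 and 2, and a low pair, replicates 3 and 4, on either side of them. The means were 31.2 ± 0.92 CPM in Cre libraries and 44.8 ± 25.9 CPM in WT libraries (SD, n = 4 each), with a log2 fold change of -0.53 (SE 0.31). The high value of WT replicate 1 came with that library's choroid plexus markers, and their part in the result was not tested. Igf2os, an antisense transcript across the gene, held 1 to 5 counts in Cre libraries and 3 to 9 counts in WT libraries, far below the 666 to 833 and the 547 to 1974 counts of Igf2 in these groups. The annotation also places Gm49394 over Igf2 on the same strand, so reads that fit both are uncertain.

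The IGF binding protein gene Igfbp2 had a like order, with 20.1, 20.7, 19 and 21.1 CPM in Cre libraries and 34.2, 33.0, 17.6 and 17.6 CPM in WT libraries. WT replicates 1 and 2 again lay above, and WT replicates 3 and 4 below, the 4 Cre libraries. The receptors did not show this: Igf1r ran from 27.3 to 29.5 CPM in Cre libraries and from 27.2 to 30.4 CPM in WT libraries, and Igf2r from 45.5 to 51.6 CPM in Cre libraries and from 45.7 to 52.7 CPM in WT libraries. Of 11 tested genes of the IGF axis, 2 had fold changes above 0 and 9 below 0, with a median of -0.04. Igfbp5, the most abundant, had a log2 fold change of -0.04 (SE 0.07). edgeR called 0 of the 11, and 0 had an unadjusted p under 0.05.

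Slc6a13 encodes GAT2, a transporter of GABA and taurine found in leptomeninges, and lies on chromosome 6 (121300227 to 121337733, plus strand, GRCm38). It had 4.39, 3.69, 5.90 and 5.14 CPM in Cre libraries, against 3.78, 9.16, 2.53 and 1.97 CPM in WT libraries. Its highest library was WT replicate 2 and its lowest were WT replicates 3 and 4, so the Cre libraries fell in the middle of the WT range. The means were 4.78 ± 0.95 CPM in Cre libraries and 4.36 ± 3.28 CPM in WT libraries (SD, n = 4 each), and the log2 fold change was 0.13 (SE 0.37). The glial GABA transporter gene Slc6a11 was level beside it, with a log2 fold change of 0.04 (SE 0.04). The taurine transporter gene Slc6a6 had a log2 fold change of -0.07 (SE 0.09). Slc6a20a, an amino acid transporter gene, had 8.23 to 10.7 CPM in Cre libraries and 10.2, 20.8, 6.64 and 8.48 CPM in WT libraries, with a log2 fold change of -0.31 (SE 0.27). It shared the excess of WT replicate 2 with Slc6a13. Slc6a12, a betaine and GABA transporter gene that was too low to be tested, had 0.18 to 0.53 CPM in Cre libraries, against 1.74 CPM in WT replicate 2 and 0.12 to 0.44 CPM in the other WT libraries. edgeR called 0 of the 3 tested GABA, betaine and taurine transporters listed here, and 0 had an unadjusted p under 0.05.

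Aldh1a2 encodes an enzyme of retinoic acid synthesis that marks arachnoid and other leptomeningeal fibroblasts, and lies on chromosome 9 (71215789 to 71296243, plus strand, GRCm38). It had 2.18, 2.65, 2.61 and 3.55 CPM in Cre libraries, against 2.48, 8.41, 1.95 and 1.56 CPM in WT libraries. WT replicate 2 stood alone at 3.39 times the median of the other 7 libraries, and the log2 fold change was -0.40 (SE 0.44). The related enzyme gene Aldh1a1 was flat and far higher in CPM, with 53.8 ± 4.59 CPM in Cre libraries and 51.3 ± 2.36 CPM in WT libraries (SD, n = 4 each). Of 17 tested genes of retinoid synthesis, transport and turnover, 10 had fold changes above 0 and 7 below 0, with a median of 0.01. Of the 17, 2 were highest in WT replicate 2. edgeR called 0 of them, and 0 had an unadjusted p under 0.05.

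To compare levels between genes, CPM was divided by the length of each gene's exons in kilobases. Dcn and Igf2 were the most abundant per length, at 7.34 ± 1.01 and 6.64 ± 3.23 CPM per kb (SD over all 8 libraries). Slc6a13 followed at 1.57 ± 0.77 CPM per kb, then Aldh1a2 at 1.40 ± 0.97, Col1a1 at 1.39 ± 0.63, Ogn at 1.29 ± 0.80, Lum at 1.05 ± 0.29 and Col1a2 at 0.92 ± 0.42 CPM per kb. Col6a4 and Col3a1 were lowest, at 0.40 ± 0.21 and 0.32 ± 0.25 CPM per kb. Only 2 steps in this order exceeded the larger SD of the neighbours, the one between Igf2 and Slc6a13 and the one between Col1a2 and Col6a4, and both held in 8 of 8 libraries. The order among the genes between these steps did not exceed their spread.

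**Figure D2:**
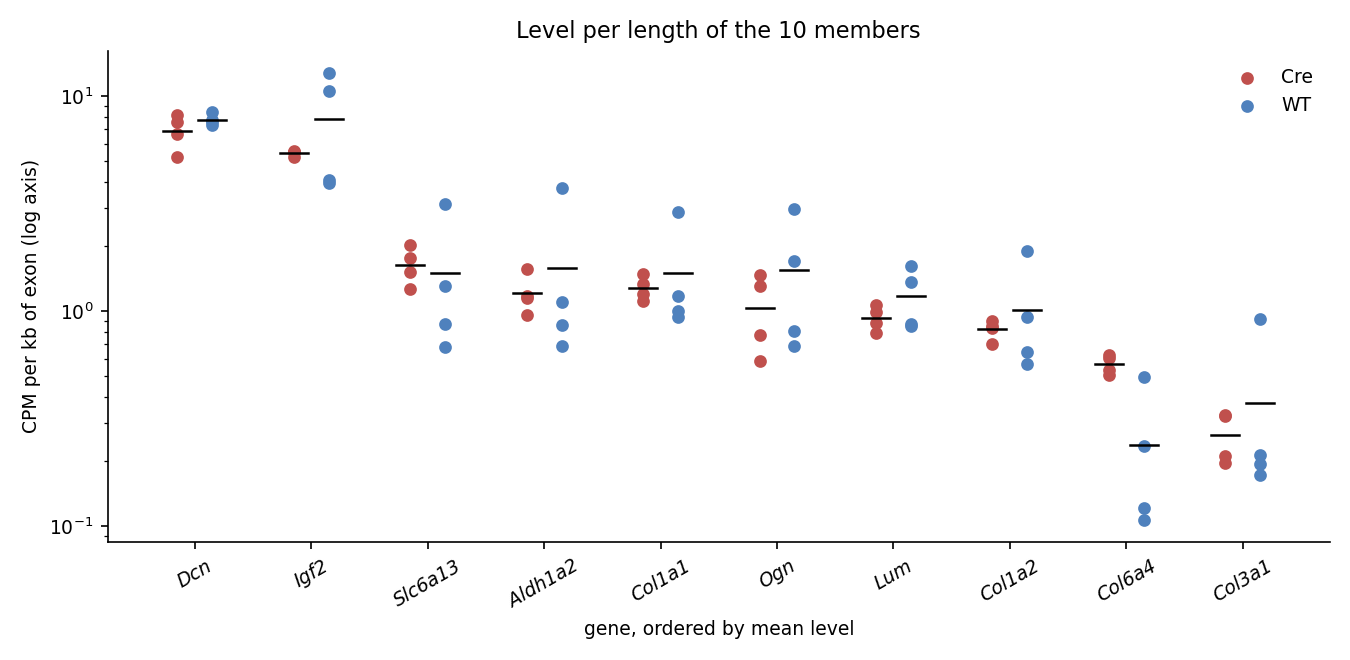
Level per length of the 10 genes on a log axis, in CPM per kilobase of exon, ordered by the mean over 8 libraries. Points are libraries and lines are group means. Dcn and Igf2 lie above the other 8 genes in the mean, and the 4 WT values of Igf2 fall into a high and a low pair.

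The 10 genes varied between libraries of a group far more than most genes. Over both groups together, the biological coefficient of variation of the 10 genes had a median of 32.0%, beside 6.72% for all tested genes. This coefficient is edgeR's estimate of the spread beyond counting error. It was 44.1% for Col3a1, 41.2% for Aldh1a2 and 39.7% for Ogn, and 28.4% for both type I collagen genes. Genes of like mean CPM had medians of 13.4% for Col3a1 and 8.14% for Col1a1. Lum, at 19.4% beside 14.5% for genes of like level, and Dcn, at 10.3% beside 5.04%, were the steadiest of the 10. These values are a description, since the genes were chosen with the library values known.

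Ratios within a library show which genes kept step. The ratio of Col1a1 to Col1a2, per length, was 1.61, 1.58, 1.34 and 1.74 in Cre libraries, and 1.26, 1.52, 1.66 and 1.56 in WT libraries. WT replicate 2, the highest library for both chains, was inside this range. Igf2 over Col1a1 was 4.14, 4.96, 4.34 and 3.70 in Cre libraries and 8.94, 4.41, 4.32 and 3.92 in WT libraries. WT replicate 1 alone departed, and the ratio of WT replicate 2 was ordinary. Col6a4 over Col1a1 was 0.38, 0.54, 0.52 and 0.36 in Cre libraries and 0.10, 0.17, 0.11 and 0.24 in WT libraries. Set against Col1a1 in its own library, Col6a4 was lower in WT replicate 2 than in any Cre library by a wider gap than in CPM alone. The wider gap follows from the denominator, since Col1a1 in WT replicate 2 was 2.46 times the median of the other 7 libraries. Slc6a13 over Col1a1 was 1.13 to 1.69 in Cre libraries and 0.68 to 1.10 in WT libraries. Aldh1a2 over Col1a1 was 0.72 to 1.05 in Cre libraries and 0.69 to 1.28 in WT libraries, and these ranges overlapped.

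**Figure D3:**
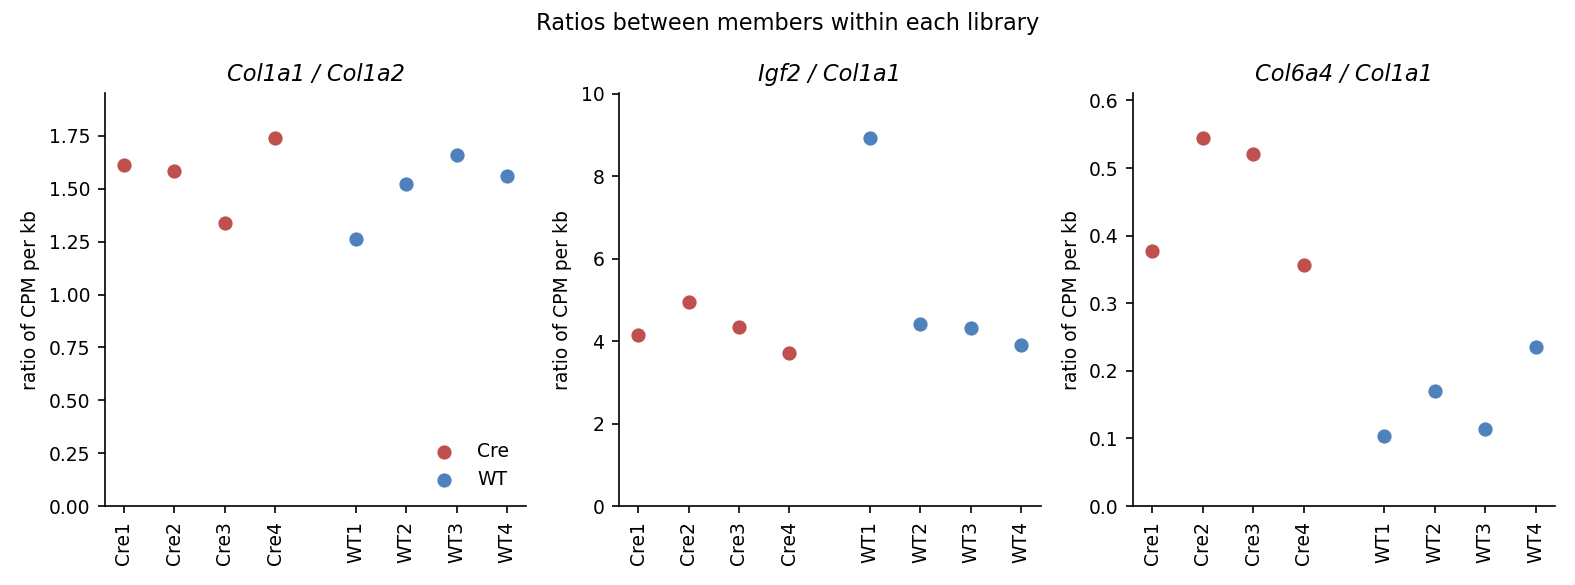
Ratios between pairs of the 10 genes within each library, each gene in CPM per kilobase of exon, on linear axes that start at 0. The type I collagen chains keep a ratio of 1.26 to 1.74 throughout, Igf2 over Col1a1 is high in WT replicate 1 alone, and Col6a4 over Col1a1 is 0.36 to 0.54 in Cre libraries and 0.10 to 0.24 in WT libraries. Col1a1 itself is highest in WT replicate 2, which lowers the ratio of Col6a4 over it there. Igf2 is also highest in that library, and its ratio there is 4.41, within the Cre range.

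The direction of 4 fold changes depended on WT replicate 2. Without it, 6 of the 10 genes had a fold change above 0 and 4 below 0, and the median was 0.25 in place of -0.33. Col1a1 (0.30), Col1a2 (0.20), Col3a1 (0.45) and Aldh1a2 (0.45) took the other sign, and Slc6a13 stood at 0.79, all as log2 fold changes without WT replicate 2. Lum (-0.15), Ogn (-0.04), Igf2 (-0.19) and Dcn (-0.18) stayed below 0. Col6a4 was at 1.87 without that library and passed the threshold in edgeR (adjusted p = 0.019), where 6 of 15978 tested genes, or 0.0376%, did. Over all settings tried, the adjusted p of Col6a4 ran from 0.019 to 1.0 and was under 0.05 in this setting alone. The library left out held the highest WT value of Col6a4, and the gene was chosen with this contrast known. The call therefore carries no test. Slc6a13 also changed sign without WT replicate 3 (-0.05) and without WT replicate 4 (-0.11).

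With WT replicates 1 and 2 both left out, a choice made after seeing the data, 9 of the 10 genes had fold changes above 0. Igf2 was then at 0.45, Ogn at 0.48, Lum at 0.11 and Slc6a13 at 1.09 on the log2 scale, and Dcn alone was below 0, at -0.12. Col6a4 was at 1.72 and 0 of the 10 genes passed the threshold in edgeR, beside 0.0186% of the 16166 genes tested then, with 4 Cre libraries against 2 WT libraries.

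**Figure D4:**
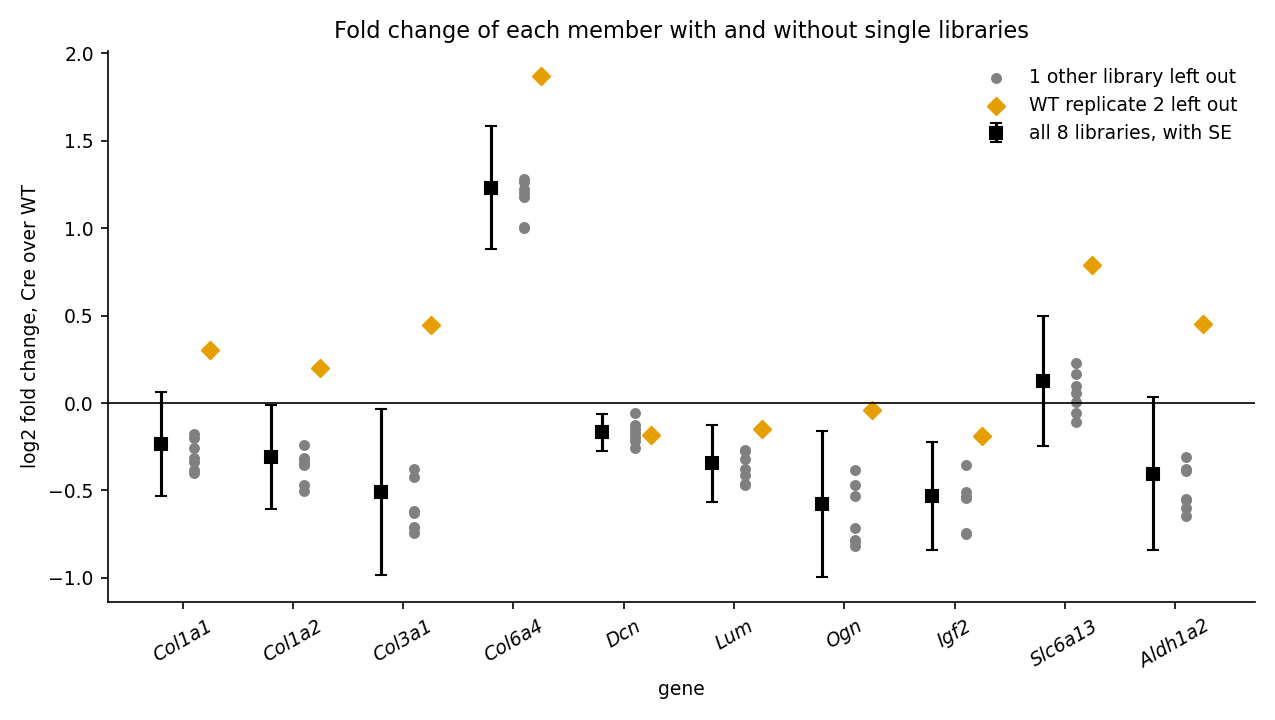
Log2 fold change, Cre over WT, of each gene with all 8 libraries (black squares, bars are SE), with WT replicate 2 left out (orange diamonds) and with each of the other libraries left out (grey points). Col1a1, Col1a2, Col3a1 and Aldh1a2 lie above 0 only where WT replicate 2 is left out, and Col6a4 lies above 0 throughout, between 1.0 and 1.87.

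The excess of WT replicate 2 extended to most other meningeal fibroblast markers. Of the 27 tested, 8 had a fold change above 0 and 19 below 0, with a median of -0.11, and this median was 0.23 without WT replicate 2. Ptgds, a prostaglandin D synthase gene, had 160, 137, 196 and 209 CPM in Cre libraries and 153, 427, 135 and 156 CPM in WT libraries. From WT replicate 1 to WT replicate 2 the summed markers rose from 557 to 881 CPM, much of it Ptgds. Slc22a6, an organic anion transporter gene, had 1.61 to 2.57 CPM in Cre libraries and reached 5.89 CPM in WT replicate 2, beside 1.2 to 2.30 CPM in the other WT libraries. Slc13a4, a sulfate transporter gene of meninges and choroid plexus, followed Igf2, with 1.88 to 3.15 CPM in Cre libraries and 9.29, 11.5, 1.5 and 1.98 CPM in WT libraries. WT replicate 2 was highest in 20 of the 27. Nov and Cldn11 were among those that did not follow: Nov was highest in Cre replicate 4 and Cldn11 in Cre replicate 1. edgeR called 0 of the 27, with 1 at an unadjusted p under 0.05.

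A profile of the 10 genes was made as the mean of their log2 CPM, each centred on its own mean. It was -0.07, -0.14, 0.08 and 0.17 in Cre libraries, and 0.00, 1.04, -0.56 and -0.52 in WT libraries. Over 8 libraries the genes that followed this profile most closely within the set were Col1a2 (Pearson r = 0.976), Col1a1 (0.967), Aldh1a2 (0.965) and Slc6a13 (0.937). Those least like it were Col6a4 (0.489) and Dcn (0.060). Each of the 10 is part of the profile it is set against, and the libraries share 1 sequencing lane, so the correlations only describe.

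Outside the set, the gene nearest to the profile was Lama1, a laminin chain of the pial basement membrane, with r = 0.980 and Spearman's rho = 0.976 over 8 libraries. It had 3.26, 2.88, 3.36 and 3.71 CPM in Cre libraries and 2.96, 5.15, 2.37 and 2.55 CPM in WT libraries. Then came Slc22a6 (r = 0.961), the morphogen gene Bmp7 (0.955), the elastin gene Eln (0.951), Fmod (0.949), Ptgds (0.926), Itih2 (0.925), the matrix Gla protein gene Mgp (0.925), the amino acid transporter gene Slc6a20a (0.923) and the tropomyosin gene Tpm2 (0.922). Of these 10 genes, 8 belong to the gene lists used here, which hold 66 of the 1071 genes that were eligible, or 6.16%. The lists, like the genes behind the profile, were chosen with earlier results of these data known, so this share only describes. Without the libraries farthest from the median of the profile, WT replicates 2 and 3, r over the remaining 6 was 0.911 for Lama1 and 0.917 for Itih2, and 0.393 for Slc6a20a and 0.498 for Mgp. For the last pair the likeness therefore rests on those libraries.

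Markers of other cell types moved with the 10 genes to differing degrees. As means of centred log2 CPM, WT replicate 2 stood at 1.04 for the 10 genes and at 0.68 for the other meningeal markers. It stood at 0.73 for vascular smooth muscle, 0.52 for red blood cell genes, 0.51 for border-associated macrophages and 0.40 for the other proteoglycans of the decorin family. It was at 0.22 for the other fibroblast markers, 0.19 for endothelium, 0.17 for pericytes, 0.06 for hippocampal neurons, -0.13 for microglia, -0.16 for choroid plexus epithelium and -0.41 for ependyma. WT replicate 2 was highest in 6 of 6 tested smooth muscle markers, 4 of 5 red blood cell genes, 3 of 5 macrophage markers, 5 of 11 endothelial markers, 5 of 15 fibroblast markers and 3 of 11 pericyte markers. It was highest in 0 of 10 microglia markers, 0 of 8 neuron markers, 0 of 8 choroid plexus markers and 0 of 5 ependymal markers. Summed smooth muscle markers were 27.8 to 40.9 CPM in Cre libraries and 50.3 CPM in WT replicate 2, beside 22.9 to 25.7 CPM in the other WT libraries. The myosin gene Myh11 was at 14.7 CPM in Cre replicate 4, which also had the highest profile of the 10 genes among Cre libraries, and at 16.8 CPM in WT replicate 2. Summed red blood cell genes were 35.1 to 47.2 CPM in Cre libraries and 29.9 to 54.2 CPM in WT libraries. The part of these markers in the levels of the 10 genes was not tested.

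**Figure D5:**
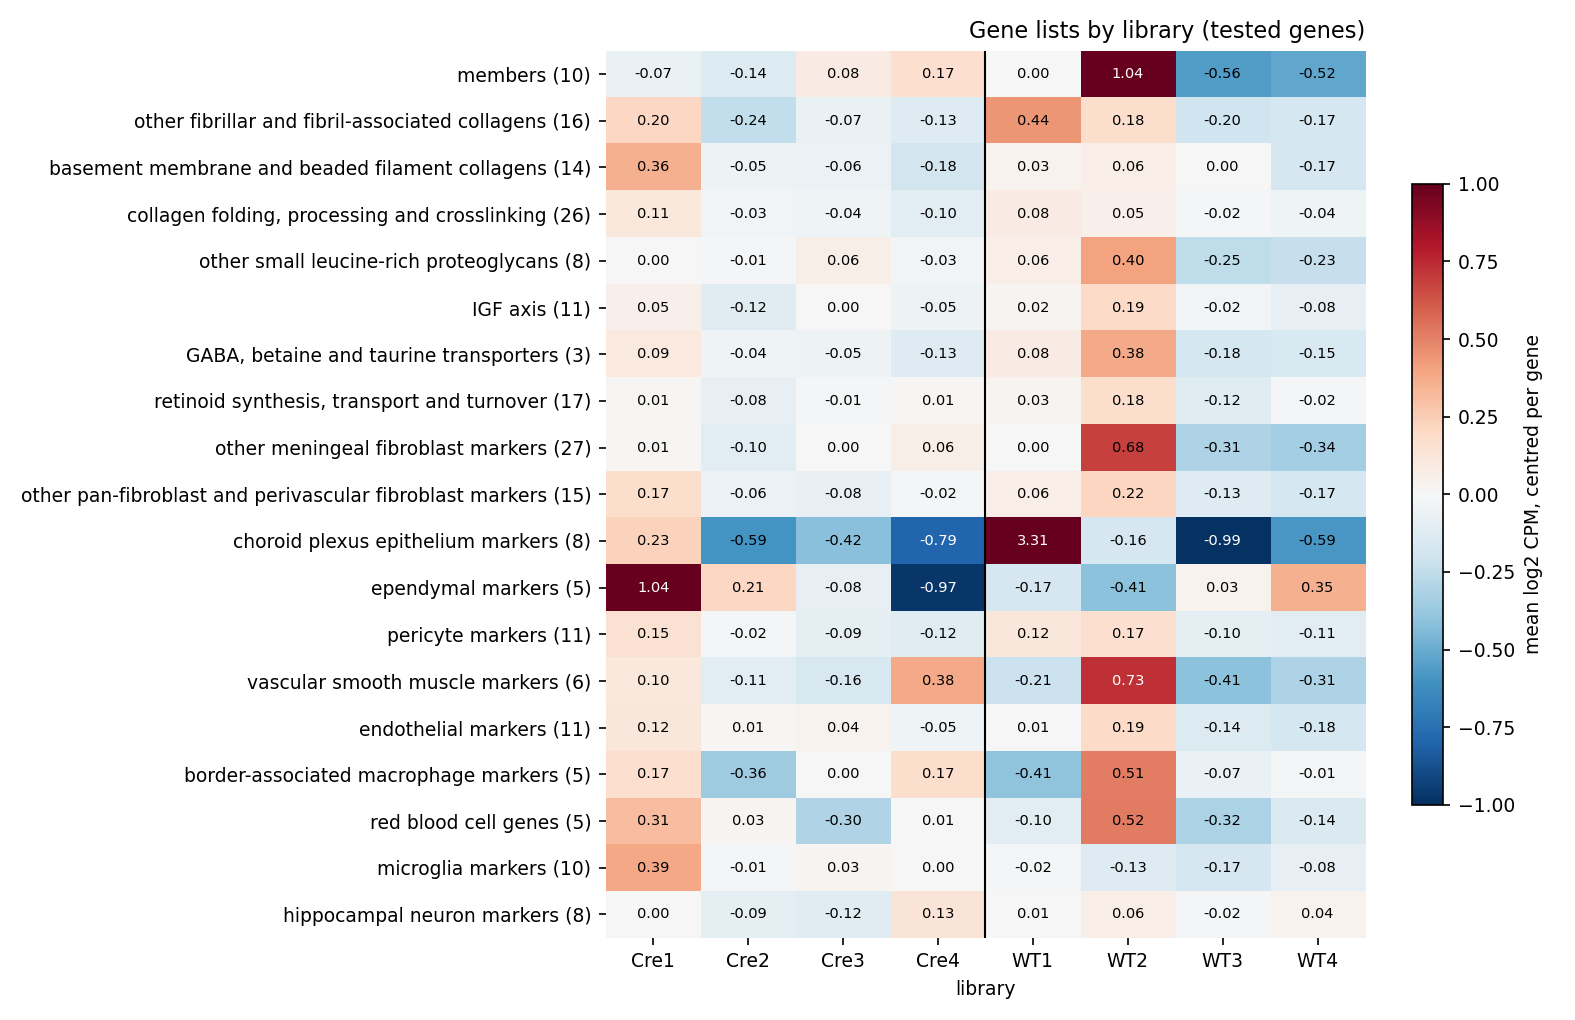
Mean log2 CPM of the tested genes of each list in each library, each gene centred on its mean over the 8 libraries, with the number of genes in brackets. Colours are limited to the range -1 to 1, printed numbers are not. The 10 genes (members) stand at 1.04 in WT replicate 2, next to 0.73 for smooth muscle and 0.68 for other meningeal markers, while WT replicate 1 stands out in choroid plexus markers at 3.31.

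WT replicate 1 differed in another way. Ttr, which encodes transthyretin, a secreted product of the choroid plexus, was at 2.79 to 13.4 CPM in Cre libraries, against 878 CPM in WT replicate 1 and 1.70 to 8.75 CPM in the other WT libraries. In that library Igf2 was well above all 4 Cre libraries, while Lum, Ogn, Dcn and Col1a2 were above them with counting intervals that overlapped that of the highest Cre library. Col1a1, Col3a1, Aldh1a2 and Slc6a13 were within the Cre range, and Col6a4 was below it, at 1.04 CPM. All 8 tested choroid plexus markers had fold changes below 0, with a median of -1.65, which was 0.23 without WT replicate 1. Of these, edgeR called 0, with 5 at an unadjusted p under 0.05. Across the 18 lists, edgeR, DESeq2 and limma voom called 0 of 206 tested genes, and 17 of them, or 8.25%, had an unadjusted p under 0.05 in edgeR, beside 3.5% of all tested genes. Microglia markers had 10 of 10 fold changes above 0 (median 0.19), 6 of them at an unadjusted p under 0.05, and Cre replicate 1 was highest in summed microglia markers at 557 CPM. Without Cre replicate 1 that median was 0.11. Ependymal markers, also highest in Cre replicate 1, had 5 of 5 fold changes above 0 (median 0.26, and 0.04 without Cre replicate 1), and hippocampal neuron markers had 4 above and 4 below 0 (median -0.02). For pericytes the split was 3 above and 8 below 0 (median -0.02), for endothelium 7 and 4 (0.05), for smooth muscle 4 and 2 (0.03), for macrophages 3 and 2 (0.04), for red blood cell genes 4 and 1 (0.06) and for the other fibroblast markers 8 and 7 (0.01).

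Promoter windows from RefSeq on GRCm38.p6 were found for 7 of the 10 genes, in 12 windows of 120 bases that run from 100 bases before the start site to 20 bases after it. Dcn, Lum and Col1a1 were not matched. The letter patterns CCAAT (the CCAAT box), TATAAA (the TATA box), GGGCGG (the GC box) and TAAACA (a core of forkhead factor sites) were searched on both strands. A match of 1 pattern may share letters with a match of another. CCAAT was found in 1 window each of Col1a2 and Aldh1a2, and in 20.8% of 32851 windows of all genes. GGGCGG was found in windows of Igf2 and Slc6a13, and in 26.7% of all windows. TATAAA and TAAACA were in none of the 12 windows, and in 6.1% and 5.0% of all windows. The 4 windows are shown 5′ to 3′ on the strand of the gene, for a pair of genes that followed the profile closely with a CCAAT box (in capitals, ATTGG being its reverse), for Col3a1, which followed it without one, and for Col6a4, which had its own pattern.
Col1a2, chr6:4505518-4505637, plus strand: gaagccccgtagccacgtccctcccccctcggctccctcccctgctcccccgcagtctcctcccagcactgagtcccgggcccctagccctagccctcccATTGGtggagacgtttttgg
Aldh1a2, chr9:71215689-71215808, plus strand: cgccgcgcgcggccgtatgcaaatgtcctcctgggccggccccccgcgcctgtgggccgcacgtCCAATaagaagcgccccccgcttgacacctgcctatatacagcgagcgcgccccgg
Col3a1, chr1:45311438-45311557, plus strand: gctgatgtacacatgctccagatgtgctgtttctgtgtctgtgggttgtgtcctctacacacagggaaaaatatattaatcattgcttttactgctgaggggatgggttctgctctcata
Col6a4, chr9:106096672-106096791, minus strand: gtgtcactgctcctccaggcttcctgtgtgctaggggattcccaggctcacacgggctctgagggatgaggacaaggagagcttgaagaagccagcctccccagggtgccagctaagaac

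The matches describe letters in these windows only. Col1a2 and Aldh1a2 had 69.2% and 71.7% G and C in them, Col6a4 60.0% and Col3a1 44.2%. Col3a1 followed the profile less closely over the 8 libraries (Pearson r = 0.907) than Col1a2 (0.976) and Aldh1a2 (0.965). Slc6a13, with no CCAAT in its windows, stood between them at 0.937. A link between these letters and the profile was not tested.

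The authors' deposited table of their own comparison lists all 10 genes among its 18116. In the authors' deposited table Col6a4 has a log2 fold change of 1.24 and a p-value of 0.0089, rank 95 by p-value, and the other 9 genes have p-values from 0.15 to 0.79. The labels do not say whether that p-value is adjusted. In the authors' deposited table each of the 10 log2 fold changes differs from the one given here by 0.0149 or less.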

How the data were processed

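Hippocampal poly(A) RNA of 4 Cre and 4 WT libraries was sequenced as paired-end reads from a directional kit, per the labels' protocols. The authors deposited whole-number counts per gene and library, not normalized. The submitters' processing notes name GRCm38, STAR 2.6.1d, featureCounts and edgeR 3.11. Which version of featureCounts counted the reads, on which annotation and with which strand setting, is not given here. For each gene the authors' deposited comparison holds a p-value, a fold with a sign, a log2 fold change, a mean log2 abundance and that abundance as a linear score.

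Libraries were grouped by the genotype in their titles. Counts were filtered with filterByExpr (minimum count 10, minimum total 15), scaled by TMM and fitted with edgeR's quasi-likelihood test (edgeR 4.0.16, limma 3.58.1, R 4.3.3; 2-sided, no covariate, Benjamini-Hochberg adjustment over all 15859 tested genes, threshold 0.05). The tested genes hold 99.9% of the counts of each library, and no entry lacked a gene name. The SE of a log2 fold change is its size divided by the square root of the test's F. Alternatives were DESeq2 1.42.0, limma voom, other scalings and filters, the replicate number as a block, and each library left out in turn. Leaving out WT replicates 1 and 2 together was added after seeing the data. Poisson intervals and floors cover counting error only.

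The 10 genes and all lists were chosen with earlier results of these data known. Named genes are the 10, up to 3 of each list with the highest mean CPM, any listed gene past the threshold, and the 10 other genes nearest to the profile by Pearson r (mean log2 CPM of at least 0, SD of at least 0.3, prior count 2). Other named genes, such as Igfbp2, Igf1r, Igf2r, Slc6a12, Slc13a4, Col8a1, Pcolce, Adamts2, Slc22a2, Cdh1, Asgr1 and the further type VI collagen genes, are outside this rule, picked once their values had been seen. 1 gene of the transporter list is not reported here and stays out of its counts. Positions and exon lengths are from GENCODE M21 on GRCm38, and promoter windows from RefSeq on GRCm38.p6.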

Additional observations from a re-analysis of the deposited data

Results flagged for a closer look

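In groups of 4 libraries, the highest or lowest library was called far from the others when its gap to the nearest was more than 0.83 of the group's range. This was met in 13 of 78 groups looked at, or 16.7%, where chance gives about 1 in 20, and the groups share libraries and genes. The 10 genes were chosen with these values known, and Fmod, Ptgds and Mgp for a likeness to a profile that peaks in WT replicate 2, so the choice itself raises this count. No Cre and WT values were compared for this.

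Most of these values belong to WT replicate 2. It held Col1a1 at 19 CPM (6.15 to 7.74 CPM in the other WT libraries), Col3a1 at 8.97 CPM (1.69 to 2.11) and Aldh1a2 at 8.41 CPM (1.56 to 2.48). Of the genes nearest to the profile, it held Fmod at 13.9 CPM (1.97 to 2.44), Ptgds at 427 CPM (135 to 156) and Mgp at 8.45 CPM (3.86 to 4.48). Summed over lists, it held 881 CPM of other meningeal fibroblast markers (505 to 557), of which Ptgds alone made up 427 CPM. It also held 50.3 CPM of vascular smooth muscle markers (22.9 to 25.7). WT replicate 1 held 1630 CPM of summed choroid plexus markers (129 to 153 CPM in the other WT libraries).

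The other values lie in Cre libraries. Igf2 was lowest in Cre replicate 3 at 29.8 CPM, where the other Cre libraries held 31.5 to 31.8 CPM, a small gap in a narrow group. The 10 genes summed to 96.0 CPM in Cre replicate 2 and to 113 to 116 CPM in the other Cre libraries. Other fibrillar and fibril-associated collagens, listed with Col8a1 and Col8a2, summed to 162 CPM in Cre replicate 1 and to 131 to 136 CPM in the other Cre libraries. Microglia markers summed to 557 CPM in Cre replicate 1 and to 422 to 434 CPM in the other Cre libraries.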

How the results depend on the processing

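The median log2 fold change of the 10 genes was -0.33 and ran from -0.48 to 0.25 with single libraries left out, at 0.25 without WT replicate 2. It was 0.47 without WT replicates 1 and 2, a choice made after seeing the data, and -0.16 with limma voom. The count of all genes called was 5. It was 5 with DESeq2's size factors, 5 with library totals, 7 with DESeq2, 5 with limma voom, 7 with no filter on low counts and 4 with a filter of 1 CPM in 4 libraries. It ran from 4 to 6 with single libraries left out, and was 3 without WT replicates 1 and 2. No gene of the 18 lists was called in any of these settings, and of the 10 genes Col6a4 was called in 1, without WT replicate 2. Among the log2 fold changes of the 10 genes, 150 values under alternatives lay within the spread between libraries of the value given and 10 did not, all 10 without WT replicate 2 or without WT replicates 1 and 2. Among the list medians 280 lay within it and 8 did not, each with 1 or both of WT replicates 1 and 2 left out, except that of GABA, betaine and taurine transporters, at -0.28 without WT replicate 3 and -0.29 without WT replicate 4.

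Same-numbered Cre and WT libraries deviated together with correlations of 0.20, -0.11, 0.02 and 0.02, and 2 of 8 libraries correlated best with their own number. Such correlations cannot settle whether same-numbered libraries were paired. With a replicate block, 6 genes were called, and the median of the 10 genes was -0.18. At 22 to 1974 counts per library, counting error is a sizeable part of the values of the sparser genes, such as Lum, and 4 libraries a group limit every SD and SE.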
